A study of Homo sapiens with 6 samples.

Results

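The PP1 and PP2A phosphatase subunits are the catalytic, scaffold and regulatory subunits of these 2 serine/threonine phosphatases, together with their inhibitors and the enzymes that modify them. Members were the rows of the deposited count table whose Ensembl identifier, with its version removed, maps to a symbol on a list of 44 genes, and all 44 were found among the 20422 genes of the table. HepG2, an established human liver cancer cell line, was sequenced as bulk RNA in 6 libraries. NC cells (n = 3) carried the empty vector, and ORF-Flag cells (n = 3) overexpressed the Flag-tagged form of APPLE, a microprotein read from a small open reading frame of the long noncoding RNA ASH1L-AS1. The sample labels speak of plasmids put into the cells, whereas the study's methods speak of stable lines made with lentivirus. Whether the 3 samples of each group came from separate cultures is not said in the sources used here, so p-values measure only the spread between these samples, which may be technical. The level of ASH1L-AS1 was not analysed here, so the overexpression was not checked in these data, and the groups rest on the labels. The NC libraries held 20081203, 24907524 and 30088457 counts on genes, and the ORF-Flag libraries 26866148, 17494668 and 27015836, each in the order of replicates 1 to 3.

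PP1 and PP2A remove phosphate groups from serine and threonine in a very large number of proteins. A few catalytic subunits are shared between many holoenzymes, and the regulatory subunit bound to each of them sets its location and its substrates. PP2A joins its catalytic subunit to a scaffold and to a B subunit of the B55, B56, B72 or striatin family, and both phosphatases can remove phosphate from kinases of the ERK cascade or from proteins upstream of them. The study tied the microprotein to the proteins of PPP1CB, PPP1R12A and PPP2R2A, so the question here is whether the mRNAs of the phosphatase subunits differed between ORF-Flag and NC cells. In bulk RNA, fewer cells with a transcript and less of it per cell cannot be told apart.

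Most subunit mRNAs differed little between ORF-Flag and NC cells. PPP1R10, a nuclear regulator of PP1, was higher in ORF-Flag cells, and PPP1R14B, a PP1 inhibitor, was lower. Of the 44 members, 41 passed the filter on low counts, and PPP1R14C, PPP2R2B and PPP2R2C did not. In the quasi-likelihood test of edgeR, 2 of 41 members (4.88%) were called at an adjusted p below 0.05, against 4.45% of the 12386 genes tested. In each direction 1 member was called, against 2.47% of all genes higher and 1.98% lower. These shares of the members lie near those of all genes. At an unadjusted p below 0.05, 6 members passed, against 18.5% of all genes. Of these 6, 4 were higher and 2 lower, against 9.29% and 9.22% of all genes. A fold change above 1.2 with an unadjusted p below 0.05 was met by 1 member, PPP1R12B, against 4.54% of all genes. The 3 ORF-Flag values lay wholly outside the range of the 3 NC values for 8 members (19.5%), against 22.4% of all genes. Of these 8, 6 were higher and 2 lower, against 11.5% and 10.9% of all genes. Without ORF-Flag replicate 1, 16 members (39.0%) had groups that did not overlap, against 33.1% of all genes. Without any other single library the share of members lay below that of all genes. These shares ran from 24.4% to 29.3% of members, against 30.9% to 37.4% of all genes. With library sizes not adjusted by TMM, 7 members (17.1%) had groups that did not overlap, against 22.6% of all genes.

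The median log2 fold change of the 41 members was −0.0008, against −0.0012 over all genes tested, and their median size of change without regard to sign was 0.048, against 0.073. Log2 fold changes were positive for 20 members and negative for 21. The sign of the members' median turned in some alternatives. It was 0.0106 without NC replicate 1, and 0.0104, 0.003 and 0.0013 without ORF-Flag replicates 1, 2 and 3. After trends on GC content and transcript length had been removed, an alternative chosen after seeing the data, it was 0.027. In that alternative 26 members were positive and 15 negative, and the median over all genes was −0.0010. The 95% interval of the fold change lay within 1.2-fold in either direction for 34 members (82.9%), against 60.2% of all genes, with a median standard error of 0.049 for the members and 0.067 for all genes. The 7 members whose interval reached beyond 1.2-fold were PPP1R10, PPP1R12B, PPP1R13L, PPP1R14B, PPP2R3A, PPP2R5B and STRN. Members had a median level of 52.4 CPM (read counts scaled to library size with TMM factors), above the 24.2 CPM of all genes tested. Removing 1 library changed the number of members called: 1 without NC replicate 1, 4 without NC replicate 3, and 0 without ORF-Flag replicate 2 or ORF-Flag replicate 3. In those last 2 edgeR fits, 5 and 4 members had an unadjusted p below 0.05. Against 6 with all libraries, that count in edgeR was also 4 without NC replicate 1. It was 8 without NC replicate 3, 8 after the removal of trends described below and 9 with the replicate number as a block. The share of all genes at an unadjusted p below 0.05 is given here for the main fit only, so these counts have no background of their own. At an adjusted p below 0.05 in edgeR, 806 genes were called after the removal of trends and 731 with the block. Over all genes the number called was 551, and it was 267 without NC replicate 2, 1058 without NC replicate 3, and 300, 278 and 199 without ORF-Flag replicates 1, 2 and 3.

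**Figure D1:**
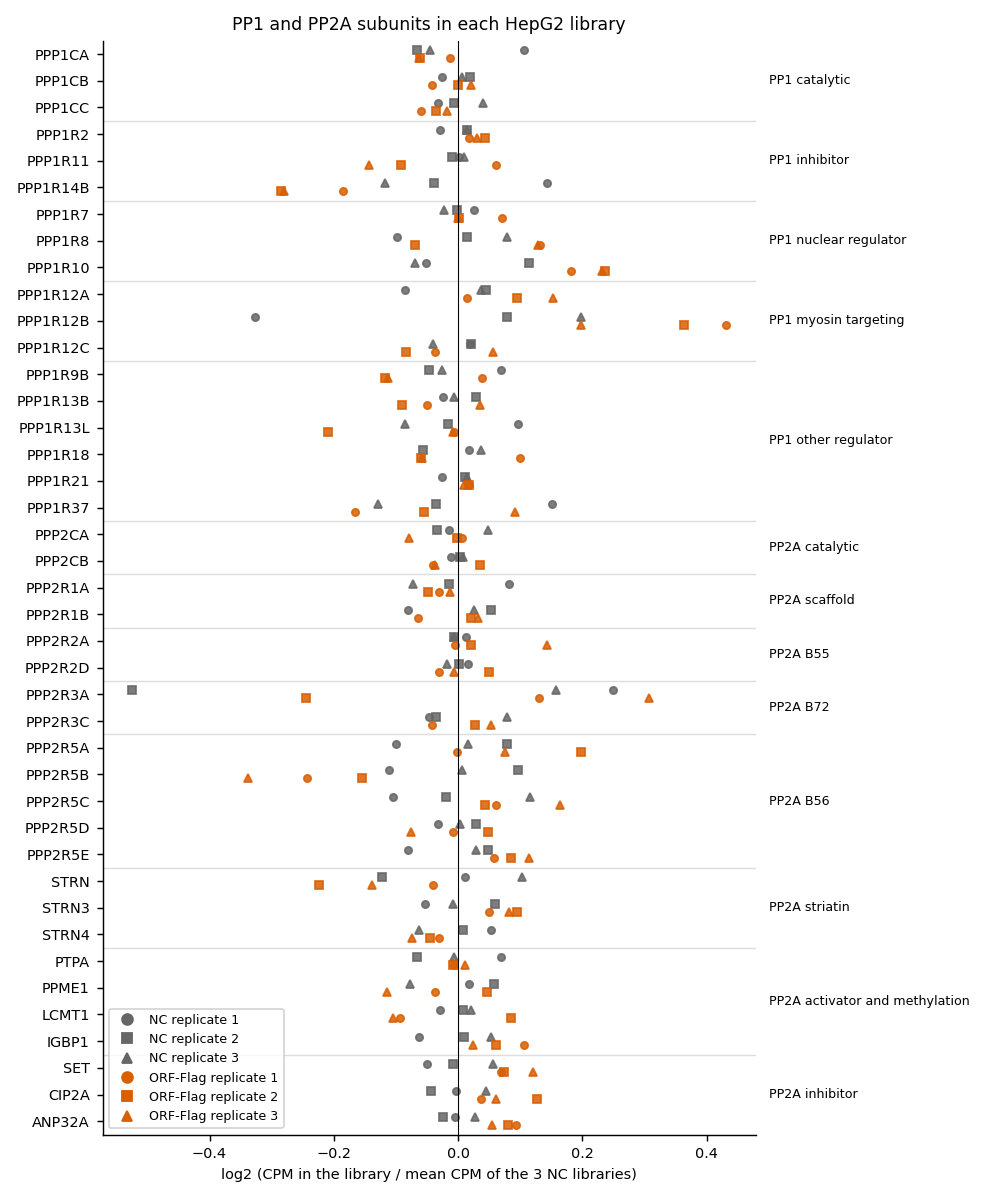
Each of the 41 members tested is a line, with its CPM in every library relative to the mean of the 3 NC libraries on a log2 axis (grey, NC; orange, ORF-Flag; symbols, replicates). The ORF-Flag points of PPP1R14B lie to the left of all 3 NC points and those of PPP1R10 to the right, while the points of the catalytic subunits are mixed.

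**Figure D2:**
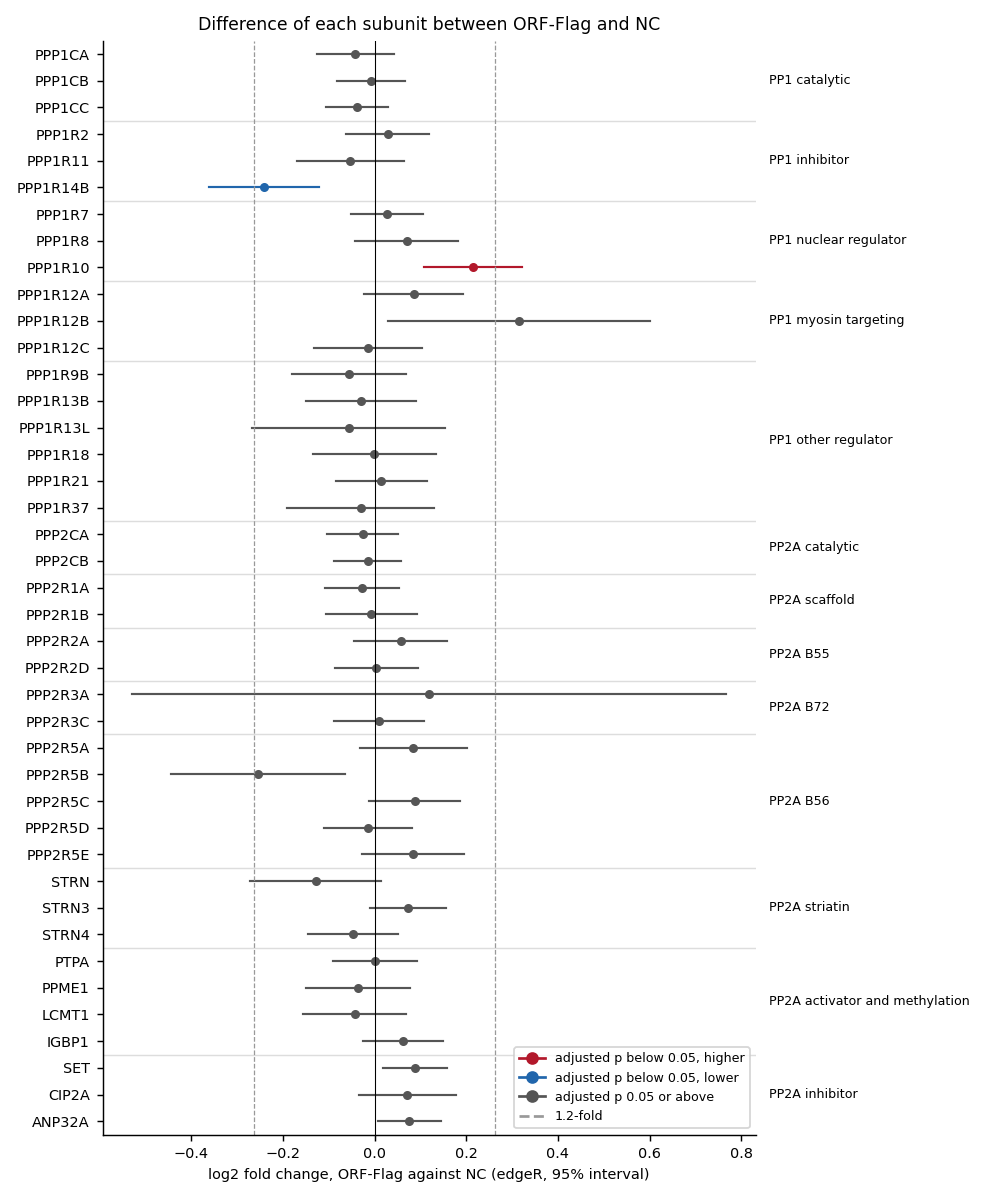
Log2 fold change of each member between ORF-Flag and NC with its 95% interval from edgeR, in the order of the members' roles; dashed lines mark 1.2-fold. PPP1R10 (red, 0.22) and PPP1R14B (blue, −0.24) were past an adjusted p of 0.05, and PPP2R3A has the widest interval.

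The PP1 catalytic subunits are encoded by PPP1CA, PPP1CB and PPP1CC. No difference between the groups was detected for any of them at an adjusted p below 0.05. PPP1CB, the isoform that joins the myosin phosphatase, was measured at 123, 127 and 126 CPM in NC cells and at 121, 125 and 127 CPM in ORF-Flag cells. The groups overlapped, with means of 125 ± 1.99 (SD, n = 3) and 124 ± 2.75 CPM (SD, n = 3). Its log2 fold change was −0.0076 (SE 0.036, edgeR adjusted p = 0.943), and the 95% interval of the ratio ran from 0.945 to 1.05. This sign turned without NC replicate 2 and without ORF-Flag replicate 1. SPDYA overlaps 7.99% of the exon bases of PPP1CB on the same strand, and 9.30% of the 31-base stretches of PPP1CB occur in another gene, so that part of its counts is uncertain. PPP1CA was measured at 179, 158 and 161 CPM in NC cells and at 165, 159 and 159 CPM in ORF-Flag cells. NC replicate 1 was the highest of the 6, and the other 5 values lay close together. The log2 fold change of PPP1CA was −0.043 (SE 0.041, edgeR adjusted p = 0.640), with a ratio between 0.916 and 1.03, and without NC replicate 1 it was 0.011. PPP1CC had 313, 318 and 329 CPM in NC cells and 307, 312 and 316 CPM in ORF-Flag cells, again with overlap. Its log2 fold change was −0.038 (SE 0.033, edgeR adjusted p = 0.596), with a ratio between 0.929 and 1.02. With the trends on GC content and transcript length removed, that of PPP1CC was −0.055 (edgeR unadjusted p = 0.0464, adjusted p = 0.242).

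Among the PP1 inhibitors, PPP1R14B fell in ORF-Flag cells. Its protein inhibits PP1 when it is phosphorylated. The gene (ENSG00000173457.11) lies at chr11:64244480-64246941 on the minus strand of GRCh38. PPP1R14B was measured at 58.6, 51.7 and 48.9 CPM in NC cells, and at 46.7, 43.5 and 43.7 CPM in ORF-Flag cells. All 3 ORF-Flag values lay below all 3 NC values, and NC replicate 1 stood above the other NC libraries. The means were 53.1 ± 4.99 (SD, n = 3) and 44.6 ± 1.76 CPM (SD, n = 3), a log2 fold change of −0.24 (SE 0.058, edgeR adjusted p = 0.0166) and a ratio of 0.846, with a 95% interval from 0.778 to 0.919. The call was lost without NC replicate 1 (−0.17, edgeR adjusted p = 0.0753), without ORF-Flag replicate 2 (−0.23, adjusted p = 0.0710) and without ORF-Flag replicate 3 (−0.22, adjusted p = 0.0989). After trends on GC content and transcript length had been taken out of every library, an alternative chosen after seeing the data, it was −0.16 (edgeR adjusted p = 0.0256). Over all alternatives its adjusted p ran from 0.000316 to 0.0989. Of the 31-base stretches of its transcripts, 35.7% occur in another gene, most of them in the pseudogene PPP1R14BP3 (27.7%), so that its counts are uncertain where reads could be split between copies.

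The other PP1 inhibitors tested were not called. PPP1R2, which holds the catalytic subunit in an inactive complex, was measured at 56.9, 58.6 and 58.6 CPM in NC cells and at 58.7, 59.8 and 59.2 CPM in ORF-Flag cells. The groups did not overlap, but by a margin far smaller than the standard error: its log2 fold change was 0.029 (SE 0.044, edgeR adjusted p = 0.795), and 19.5% of its 31-base stretches are shared with PPP1R2B. PPP1R11 had a log2 fold change of −0.053 (SE 0.056, edgeR adjusted p = 0.685), which was −0.0066 without ORF-Flag replicate 3 and −0.12 without ORF-Flag replicate 1. PPP1R14C, a paralog of PPP1R14B, had 1 count in NC replicate 2 and 0 in the other 5 libraries. A count of 0 allows up to 3 counts, which is between 0.0997 and 0.171 CPM in these libraries and covers counting error only.

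Of the nuclear regulators of PP1, PPP1R10 rose in ORF-Flag cells. Its protein, also named PNUTS, holds PP1 at chromatin and at the transcription machinery. The gene (ENSG00000204569.10) lies at chr6:30600400-30618612 on the minus strand of GRCh38. PPP1R10 was measured at 46.4, 52.0 and 45.8 CPM in NC cells and at 54.5, 56.6 and 56.4 CPM in ORF-Flag cells. All 3 ORF-Flag values lay above all 3 NC values, and NC replicate 2 came nearest to them. The means were 48.1 ± 3.44 (SD, n = 3) and 55.9 ± 1.17 CPM (SD, n = 3), a log2 fold change of 0.22 (SE 0.052, edgeR adjusted p = 0.0167) and a ratio of 1.16, with a 95% interval from 1.08 to 1.25. The call was lost without ORF-Flag replicate 2 (0.21, edgeR adjusted p = 0.0710) and without ORF-Flag replicate 3 (0.21, adjusted p = 0.0893). Over all alternatives its adjusted p in edgeR, DESeq2 or limma ran from 0.00182 to 0.0893. No 31-base stretch of its longest transcript was found in another gene. PPP1R7 and PPP1R8, which also bind PP1 in the nucleus, were not called, with log2 fold changes of 0.027 (SE 0.038) and 0.070 (SE 0.054). PASK overlaps 17.4% of the exon bases of PPP1R7 on the other strand.

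The promoters of both called members are shown because these are the 2 genes of the set that passed the test. Sequences were taken from the RefSeq promoter table on GRCh38.p14, which held an entry for 39 of the 44 members. Each run gives 240 bases on the minus strand, from 250 to 11 bases before the RefSeq start, at chr6:30617254-30617493 for PPP1R10 and at chr11:64246954-64247193 for PPP1R14B. Capitals mark the GC box GGGCGG and the CCAAT box CCAAT on the strand shown or its complement.
PPP1R10: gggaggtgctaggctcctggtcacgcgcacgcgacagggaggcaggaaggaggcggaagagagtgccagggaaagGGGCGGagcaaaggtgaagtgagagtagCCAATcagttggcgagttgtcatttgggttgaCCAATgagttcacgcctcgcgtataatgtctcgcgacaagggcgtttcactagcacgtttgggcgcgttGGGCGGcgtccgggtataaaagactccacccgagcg
PPP1R14B: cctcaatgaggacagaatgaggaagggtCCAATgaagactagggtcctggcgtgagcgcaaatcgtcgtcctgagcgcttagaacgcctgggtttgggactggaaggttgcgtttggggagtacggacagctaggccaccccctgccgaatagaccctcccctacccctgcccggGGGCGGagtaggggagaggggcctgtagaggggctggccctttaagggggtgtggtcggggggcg

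The PPP1R10 window holds 2 GC boxes and 2 CCAAT boxes, and the PPP1R14B window holds 1 of each. On either strand, windows of the same length hold a GC box in 41.4% and a CCAAT box in 31.4% of 35116 promoters. The E2F motif (TTTCGCGC or TTTGGCGC), the ETS motif CCGGAAG, the AP-1 motif TGANTCA and the CRE TGACGTCA were found in neither window, and they occur in 0.914%, 7.68%, 6.43% and 1.57% of all promoters. The GC content of the windows was 59.6% for PPP1R10 and 63.3% for PPP1R14B. In GENCODE v29 the PPP1R14B window overlaps exons of a lincRNA on the same strand and of an antisense transcript, and the PPP1R10 window lies in an intron of PPP1R10 itself and overlaps no exon. A match says only that these letters are present.

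The nearest tested neighbours of the called genes were examined next. PLCB3, a phospholipase C gene 4582 bases to the right of PPP1R14B, was called lower, with a log2 fold change of −0.28 (SE 0.061, edgeR adjusted p = 0.00803). Over all genes 1.98% were called lower, and the neighbours are given for the main fit only. FKBP2, 348 bases to the left, had a log2 fold change of 0.12 (SE 0.062, edgeR adjusted p = 0.284). PPP2R5B, another member, lies 670612 bases away and was also measured lower, as given below. On both sides of PPP1R10, ABCF1 (0.0065, SE 0.035) and ATAT1 (−0.086, SE 0.068) were not called. PPP1R18, the next member at 57777 bases from PPP1R10, had a log2 fold change of −0.00084, and PPP1R11 lies 530067 bases away in the same region.

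PPP1R12A, PPP1R12B and PPP1R12C encode the targeting subunits that bring PPP1CB to myosin. PPP1R12A, also named MYPT1, was measured at 43.6, 47.7 and 47.4 CPM in NC cells and at 46.7, 49.4 and 51.4 CPM in ORF-Flag cells. The groups overlapped through ORF-Flag replicate 1. Its means were 46.3 ± 2.29 (SD, n = 3) and 49.2 ± 2.38 CPM (SD, n = 3), a log2 fold change of 0.085 (SE 0.052, edgeR adjusted p = 0.416) with a ratio between 0.984 and 1.14. With 1 library left out it lay between 0.047, without NC replicate 1, and 0.12, without ORF-Flag replicate 1. PPP1R12B, the form best known from striated muscle, was low in these cells, at 3.81, 5.04 and 5.48 CPM in NC and 6.44, 6.15 and 5.48 CPM in ORF-Flag cells. NC replicate 3 and ORF-Flag replicate 3 were nearly equal, and NC replicate 1 was the lowest. The log2 fold change of PPP1R12B was 0.31 (SE 0.139, edgeR unadjusted p = 0.0325, adjusted p = 0.222), with a ratio between 1.02 and 1.52. It no longer met the rule of 1.2-fold with an unadjusted p below 0.05 in DESeq2 (unadjusted p = 0.0592), or in edgeR without NC replicate 1 (0.19, unadjusted p = 0.180), ORF-Flag replicate 1 (0.26, unadjusted p = 0.125) or ORF-Flag replicate 2 (0.30, unadjusted p = 0.0641). Over all alternatives its adjusted p in edgeR, DESeq2 or limma ran from 0.0828 to 0.543. SYT2 overlaps 10.02% of its exon bases on the other strand. PPP1R12C had a log2 fold change of −0.015 (SE 0.057).

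The 6 other PP1 regulators were PPP1R9B (spinophilin, which binds actin), PPP1R13B and PPP1R13L (members of the ASPP family that binds p53), PPP1R18 (phostensin, which binds actin), PPP1R21 and PPP1R37. None of them was called, and none had an unadjusted p below 0.05 in edgeR. Their log2 fold changes ran from −0.057 in PPP1R13L to 0.014 in PPP1R21, and their groups overlapped in each case. The signs of PPP1R9B, PPP1R13L, PPP1R18, PPP1R21 and PPP1R37 turned in at least 1 alternative.

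**Figure D3:**
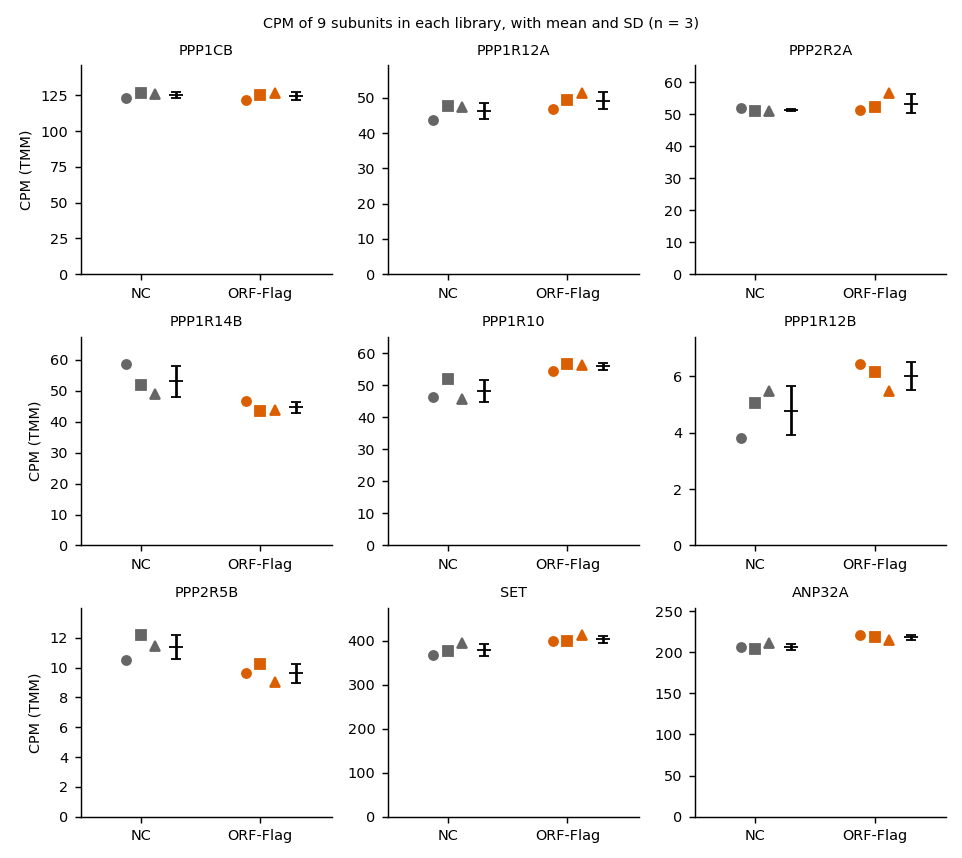
CPM of 9 subunits in each library (symbols, replicates), with the mean and SD of each group (n = 3) in black and vertical axes that start at 0. PPP1CB, PPP1R12A and PPP2R2A overlap between the groups, and the other 6 do not. For PPP1R12B, NC replicate 3 and ORF-Flag replicate 3 are nearly equal.

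The catalytic subunit of PP2A is encoded by PPP2CA and PPP2CB, and its scaffold by PPP2R1A and PPP2R1B. None of these was called. PPP2CA was measured at 142, 140 and 148 CPM in NC cells and at 144, 143 and 135 CPM in ORF-Flag cells. PPP2CB had 139, 141 and 141 CPM in NC cells and 137, 144 and 137 CPM in ORF-Flag cells. The groups overlapped for both genes. Their log2 fold changes were −0.026 (SE 0.037, edgeR adjusted p = 0.777) for PPP2CA and −0.016 (SE 0.036, edgeR adjusted p = 0.875) for PPP2CB, with ratios between 0.931 and 1.04 and between 0.940 and 1.04. The sign of PPP2CA turned without ORF-Flag replicate 3. Same-strand transcripts overlap 9.22% of the exon bases of PPP2CA, and 7.39% of the 31-base stretches of PPP2CB occur in a pseudogene. PPP2R1A, the main scaffold gene, had 158, 148 and 142 CPM in NC cells and 146, 145 and 148 CPM in ORF-Flag cells. PPP2R1B had 55.9, 61.4 and 60.2 CPM in NC cells and 56.6, 60.0 and 60.5 CPM in ORF-Flag cells. The ORF-Flag values of both scaffold genes lay inside the range of the NC values. The log2 fold changes were −0.027 (SE 0.039, edgeR adjusted p = 0.776) for PPP2R1A and −0.0075 (SE 0.048, edgeR adjusted p = 0.958) for PPP2R1B. The sign turned without NC replicate 1 for PPP2R1A, and without NC replicate 2, NC replicate 3 or ORF-Flag replicate 1 for PPP2R1B.

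The B55 subunits direct PP2A to mitotic and signalling substrates. PPP2R2A, which encodes B55 alpha, was measured at 51.9, 51.2 and 51.2 CPM in NC cells and at 51.2, 52.2 and 56.8 CPM in ORF-Flag cells. Only ORF-Flag replicate 3 stood apart, and the groups overlapped. Its means were 51.4 ± 0.417 (SD, n = 3) and 53.4 ± 2.98 CPM (SD, n = 3), a log2 fold change of 0.057 (SE 0.049, edgeR adjusted p = 0.598) with a ratio between 0.970 and 1.12. Without ORF-Flag replicate 3 it was 0.0074. PPP2R2D had 61.8 ± 0.756 CPM in NC (SD, n = 3) and 62.0 ± 1.76 CPM in ORF-Flag cells (SD, n = 3), and a log2 fold change of 0.0031 (SE 0.044) whose sign turned in 3 alternatives. PPP2R2B, a B55 gene best known from brain, had at most 3 counts in each library, and PPP2R2C had 1, 4 and 6 counts in NC and 12, 5 and 6 counts in ORF-Flag cells. Scaled to library size, PPP2R2C was at 0.0495, 0.160 and 0.200 CPM in NC cells and at 0.447, 0.287 and 0.222 CPM in ORF-Flag cells. All 3 ORF-Flag values lay above all 3 NC values, but they rest on few counts. Neither gene passed the filter, and no fold change is given for them.

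The 5 B56 subunits, PPP2R5A to PPP2R5E, bind short motifs in their substrates and act at kinetochores and in growth signalling. PPP2R5B was measured at 10.5, 12.2 and 11.4 CPM in NC cells and at 9.61, 10.2 and 9.0 CPM in ORF-Flag cells. The groups did not overlap, with NC replicate 1 and ORF-Flag replicate 2 nearest to each other. The log2 fold change of PPP2R5B was −0.25 (SE 0.092, edgeR unadjusted p = 0.0110, adjusted p = 0.123), and the ratio of 0.839 had a 95% interval from 0.735 to 0.957. The unadjusted p rose above 0.05 without NC replicate 2 (−0.20, edgeR unadjusted p = 0.0667) and without ORF-Flag replicate 3 (−0.21, unadjusted p = 0.0584), and over all alternatives the adjusted p in edgeR, DESeq2 or limma ran from 0.0805 to 0.395. The size of the PPP2R5B difference was close to that of PPP1R14B, but its standard error was larger. PPP2R5E had 35.0, 38.3 and 37.8 CPM in NC cells and 38.5, 39.3 and 40.1 CPM in ORF-Flag cells. These groups did not overlap either, and its log2 fold change was 0.083 (SE 0.054, edgeR adjusted p = 0.440). PPP2R5A and PPP2R5C had log2 fold changes of 0.084 (SE 0.057) and 0.088 (SE 0.048), and PPP2R5C was called without NC replicate 3 (0.15, edgeR adjusted p = 0.0280), with adjusted p from 0.0280 to 0.767 over all alternatives. The log2 fold change of PPP2R5C was 0.041 without NC replicate 1 and 0.048 without ORF-Flag replicate 3, and 9.46% of its 31-base stretches occur in another gene, most of them in a pseudogene (8.36%). For PPP2R5D the log2 fold change was −0.015 (SE 0.046).

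The B72 family was represented by PPP2R3A and PPP2R3C. PPP2R3A was near the filter, with 18, 13 and 25 counts in NC and 22, 11 and 25 counts in ORF-Flag cells. Its interval of the ratio, from 0.693 to 1.70, allows changes far larger than those of the called members. PPP2R3C had a log2 fold change of 0.0098 (SE 0.047), and the sign of both genes turned in some alternatives. Genes on the other strand overlap 15.0% of the exon bases of PPP2R3C. The striatins STRN, STRN3 and STRN4 hold PP2A in the STRIPAK complex, where it meets kinases of the STE20 group. Their log2 fold changes were −0.13 (SE 0.069, edgeR adjusted p = 0.332), 0.073 (SE 0.040, edgeR adjusted p = 0.341) and −0.048 (SE 0.048, edgeR adjusted p = 0.659), and the groups of each overlapped.

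PTPA activates PP2A, LCMT1 methylates the end of its catalytic subunit, PPME1 removes that methyl group, and IGBP1 protects free catalytic subunits. None of the 4 was called, with log2 fold changes of 0.00057 (SE 0.045), −0.044 (SE 0.054), −0.036 (SE 0.055) and 0.062 (SE 0.043) in that order. The sign of PTPA, which is next to 0, turned in 8 alternatives. SET, a chromatin protein that inhibits PP2A, was measured at 366, 377 and 394 CPM in NC cells and at 398, 399 and 412 CPM in ORF-Flag cells. ANP32A, another inhibitor that acts with SET, had 206, 203 and 211 CPM in NC cells and 221, 219 and 215 CPM in ORF-Flag cells. The groups did not overlap for either gene, although the highest NC value, in replicate 3, came within a few CPM of the ORF-Flag values. SET had a log2 fold change of 0.087 (SE 0.034, edgeR unadjusted p = 0.0167, adjusted p = 0.154) and ANP32A one of 0.076 (SE 0.033, edgeR unadjusted p = 0.0316, adjusted p = 0.217). Their 95% intervals of the ratio ran from 1.01 to 1.12 and from 1.01 to 1.105. SET no longer had an unadjusted p below 0.05 in edgeR without NC replicate 1 (unadjusted p = 0.0584) or ORF-Flag replicate 3 (unadjusted p = 0.0918), and ANP32A without NC replicate 2 (unadjusted p = 0.118), ORF-Flag replicate 1 (0.114) or ORF-Flag replicate 2 (0.0787). SET was called without NC replicate 3 (0.12, edgeR adjusted p = 0.0243), with adjusted p from 0.0243 to 0.469 over all alternatives, and 24.4% of its 31-base stretches occur in other genes, mostly in the pseudogene SETP14 (16.4%). CIP2A, which inhibits PP2A bound to MYC, had a log2 fold change of 0.071 (SE 0.051, edgeR adjusted p = 0.503), and its groups overlapped.

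**Figure D4:**
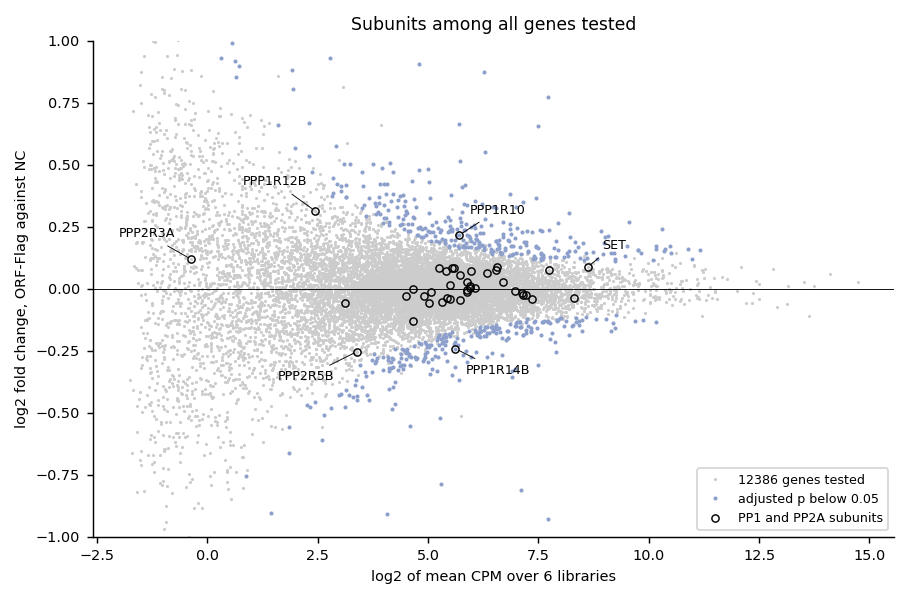
Log2 fold change (ORF-Flag against NC) against the log2 of the mean CPM for the 12386 genes tested (grey; blue, adjusted p below 0.05) with the 41 members as open circles; 37 genes lie outside the vertical range. Most members lie close to 0 at a medium to high level.

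Levels were compared between genes as CPM per kilobase of the union of their exons. On this scale SET had the highest level of all 44 members (89.8), followed by PPP1CA (60.3), PPP1CC (45.7) and IGBP1 (43.1), though 17.3% of the 31-base stretches of IGBP1 occur in other genes. PPP2R3A (0.0983) and PPP1R12B (0.256) were the lowest of those tested. Shares within families are given as their range over the libraries. PPP1CA held between 46.1% and 49.7% of the PP1 catalytic sum per kilobase, PPP1CC between 34.2% and 37.0%, and PPP1CB between 16.1% and 17.4%. PPP2CB held between 54.4% and 55.9% of the PP2A catalytic sum, and PPP2R1A between 68.1% and 71.9% of the scaffold sum. PPP2R2D and PPP2R2A shared nearly all of the B55 sum, with at least 52.3% and 44.5% in every library. Among the B56 genes PPP2R5D led on this scale with between 39.0% and 42.4%, and PPP2R5B was the smallest, at 7.73 ± 0.268% in NC (SD, n = 3) and 6.42 ± 0.271% in ORF-Flag cells (SD, n = 3). Genes on the other strand overlap 36.0% of the exon bases of PPP2R5D (MEA1) and 26.9% of those of PPP1CA, and the strand setting of the counting is not given in the sources used here, so these levels may hold reads of the overlapping genes. The shares of PPP2R5B did not overlap between the groups, with at least 7.52% in NC and at most 6.58% in ORF-Flag cells, and this difference in shares was not tested. Those of PPP2R5E did not overlap either, by a narrow margin, with at most 9.28% in NC and at least 9.29% in ORF-Flag cells. Nor did the shares of PPP2R2C, which rest on few counts. STRN3 made up 64.2 ± 1.47% of the striatin sum in NC (SD, n = 3) and 66.6 ± 0.920% in ORF-Flag cells (SD, n = 3). The STRN3 shares overlapped between the groups, and their difference was not tested either. The order within a family depends on the length used. With the longest transcript, PPP1CC led the PP1 catalytic genes with a mean share of 47.9% over the 6 libraries, in place of 35.8%, and PPP1CA had 41.3%. PPP2R2A then led the B55 genes with 57.0%, in place of 45.4%, and PPP2R5C the B56 genes with 32.2%, in place of 14.9%, before PPP2R5D with 30.0%. With no division by length, PPP2R5C also led the B56 genes (37.7%, and 23.9% for PPP2R5D), and PPP1CC led the PP1 catalytic genes with 52.3%. PPP2CB kept the larger share of the PP2A catalytic sum with the longest transcript (69.6%), but had 49.7% with no division by length.

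The summed levels of the families were compared between the groups, without a test. The PP1 catalytic sum was 129 ± 3.00 CPM per kilobase in NC (SD, n = 3) and 126 ± 0.446 in ORF-Flag cells (SD, n = 3). All 3 ORF-Flag sums lay below all 3 NC sums, although ORF-Flag replicate 3 came within 1 CPM per kilobase of NC replicate 2 and each of the 3 genes had groups that overlapped. For the PP2A catalytic genes it was 56.4 ± 0.887 in NC (SD, n = 3) and 55.7 ± 1.44 in ORF-Flag cells (SD, n = 3), and for the B56 genes 43.6 ± 1.84 and 44.4 ± 1.46 (SD, n = 3 each). The scaffold sum was 28.9 ± 0.773 in NC and 28.5 ± 0.424 in ORF-Flag cells, and the B55 sum 14.5 ± 0.135 and 14.8 ± 0.411 (SD, n = 3 each). The striatin sum was 28.4 ± 0.475 and 28.9 ± 0.0848, and that of the PPP1R12 genes 8.44 ± 0.203 and 8.68 ± 0.346 (SD, n = 3 each). The groups overlapped in these 6 families. Summed over the catalytic genes, PP1 transcripts were more abundant per kilobase of exons than PP2A transcripts in all 6 libraries.

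**Figure D5:**
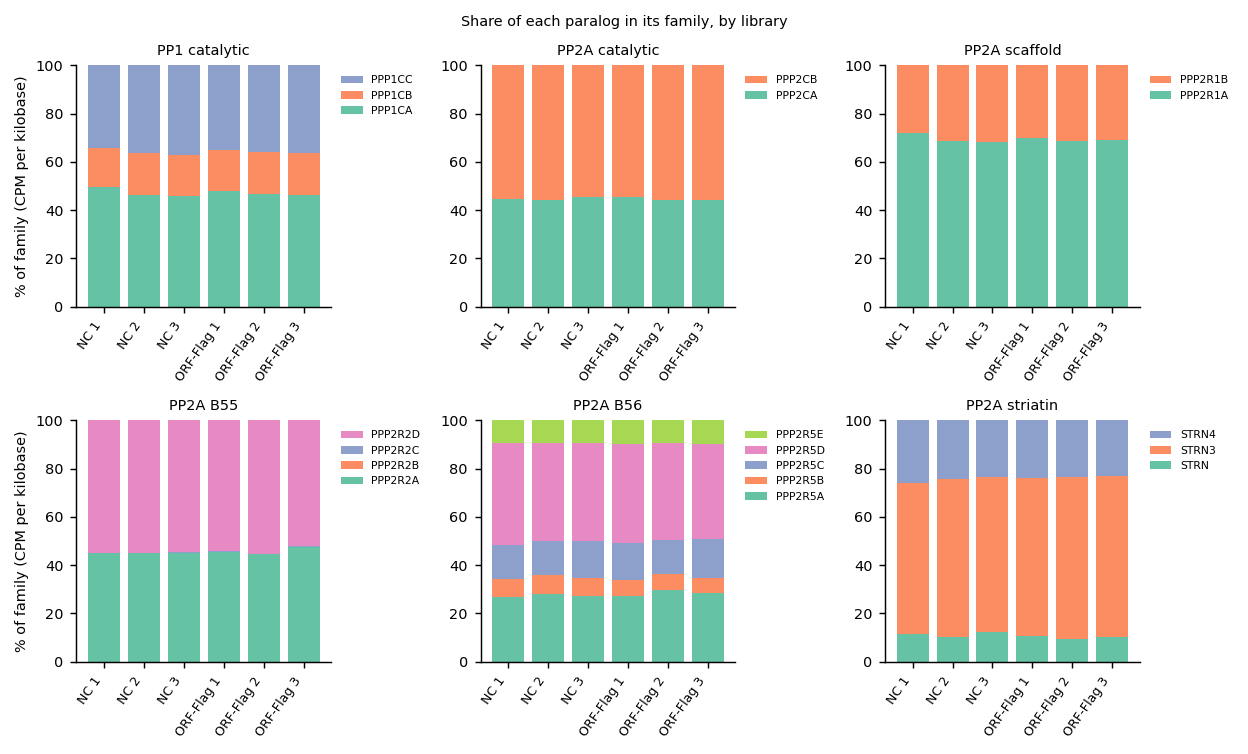
Share of each paralog in the summed CPM per kilobase of its family, in percent, for the 6 libraries. The share of PPP2R5B is smaller in the 3 ORF-Flag bars than in the 3 NC bars, and PPP2R2B and PPP2R2C are too low to be seen.

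The members range widely in GC content, from 34.9% in CIP2A to 68.0% in PPP1R14B. Across the 41 members tested, the log2 fold change was lower in genes of higher GC content (Pearson's r = −0.425, Spearman's rho = −0.493), and over the 12345 genes tested that have a GC content r was −0.168 and rho −0.240. These are correlations across genes that share 6 libraries, and genes are not independent replicates. NC replicate 1 stood apart in this respect: its median log2 deviation from the mean of all libraries was 0.13 in the tenth of genes with the highest GC content and −0.066 in the tenth with the lowest. In the other 5 libraries these values lay between −0.050 and 0.042. With the trends on GC content and transcript length removed, r across the members was −0.080, and PPP1R14B (−0.16) and PPP1R10 (0.23, edgeR adjusted p = 0.00314) were called. That step takes out each library's trend on the same GC content, so a weaker r follows from the step and is no separate result.

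Other genes of phosphatase biology were examined from 5 lists with 96 genes, of which 85 were tested, and 4 were called higher and 0 lower in edgeR, against 2.47% and 1.98% of all genes. At an unadjusted p below 0.05 in edgeR, 7 of the 85 were higher and 5 lower, against 9.29% and 9.22% of all genes. Of 23 other PP1-binding proteins tested, 1 was called higher. PPP1R15A, which brings PP1 to the translation factor eIF2 alpha after stress, was measured at 42.9, 42.5 and 45.2 CPM in NC cells and at 63.9, 61.5 and 61.1 CPM in ORF-Flag cells. The groups were far apart, with a log2 fold change of 0.51 (SE 0.047, edgeR adjusted p = 1.19e-07), and it was called in each alternative. Of 12 other PP2A regulators, 2 were called higher. IER3, an immediate early gene, had 65.4, 59.5 and 59.8 CPM in NC cells and 74.8, 73.3 and 70.2 CPM in ORF-Flag cells (0.24, SE 0.047, edgeR adjusted p = 0.00286). INTS6, through which the Integrator complex recruits PP2A, had 55.5, 57.9 and 59.5 CPM in NC cells and 65.5, 70.2 and 64.2 CPM in ORF-Flag cells. Its log2 fold change was 0.20 (SE 0.047, edgeR adjusted p = 0.0130), and the call was lost without NC replicate 2 (adjusted p = 0.0524) and without ORF-Flag replicate 2 (adjusted p = 0.0996), the range over all alternatives being 0.00176 to 0.0996.

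Of 25 other serine/threonine phosphatase genes tested, 1 was called higher. PPM1D, a phosphatase induced by p53, had 45.8, 44.3 and 44.3 CPM in NC cells and 49.9, 52.9 and 49.3 CPM in ORF-Flag cells. Its log2 fold change was 0.18 (SE 0.049, edgeR adjusted p = 0.0387). The call was lost in DESeq2 (adjusted p = 0.0696) and, in edgeR, without NC replicate 2 (adjusted p = 0.153), NC replicate 3 (0.0617), ORF-Flag replicate 1 (0.0917), ORF-Flag replicate 2 (0.197) and ORF-Flag replicate 3 (0.0877), and the range over all alternatives was 0.0263 to 0.197. None of 10 STRIPAK partners of the striatins was called, with 1 at an unadjusted p below 0.05 in edgeR. Of the 15 ERK1/2 cascade kinases and adaptors tested, 0 were called and 0 had an unadjusted p below 0.05 in edgeR, against 18.5% of all genes, with log2 fold changes between −0.080 and 0.070. The median log2 fold change over the 5 lists was 0.0084, against −0.0012 over all genes tested.

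The cell line label was checked against marker genes. All 10 hepatocyte and HepG2 markers were tested. By mean CPM, with no division by length, APOB was the most abundant, at between 7312 and 8152 CPM. ALB was at between 6714 and 7586 CPM, and it was above APOB in ORF-Flag replicate 1. AFP was at between 713 and 755 CPM, while TTR was low at between 5.63 and 6.66 CPM. Per kilobase of exons ALB was the highest of the 10, with a mean of 2143 CPM, against 2014 for APOA2 and 519 for APOB. Of this list 2 were called higher, APOA2 (0.16, edgeR adjusted p = 0.00925) and FGB (0.14, edgeR adjusted p = 0.0232), and 0 lower. Of the others, APOB (−0.073, edgeR unadjusted p = 0.0409), HNF4A (−0.053), APOA1 (−0.041) and TF (−0.0094) had negative log2 fold changes, and SERPINA1 (0.086, edgeR unadjusted p = 0.0122), ALB (0.079, unadjusted p = 0.0284), TTR (0.044) and AFP (0.032) positive ones. With the GC and length trends removed, APOB was called lower (−0.11, edgeR adjusted p = 0.0110) and SERPINA1 higher (0.10, adjusted p = 0.0271), and SERPINA1 was also called without NC replicate 3 (adjusted p = 0.0399). The adjusted p over all alternatives ran from 0.0110 to 0.502 for APOB and from 0.0271 to 0.349 for SERPINA1. The summed level of the list was 27260, 27916 and 28502 CPM in NC cells and 28545, 28241 and 28273 CPM in ORF-Flag cells. Of 5 immune markers PTPRC and CD3E were at 0 in each library, and LYZ, the most abundant of them, was called higher (0.17, edgeR adjusted p = 0.0112). The immune list summed to 1298, 1439 and 1435 CPM in NC cells and 1527, 1630 and 1529 CPM in ORF-Flag cells, and LYZ made up between 96.7% and 97.6% of these sums. CD68 had means of 39.3 and 38.4 CPM in NC and ORF-Flag cells, with groups that overlapped (−0.028, edgeR adjusted p = 0.856), and CD14 was near the filter, with means of 0.622 and 0.823 CPM. The part of LYZ in the results above was not tested. Of the 5 fibroblast and stellate markers 2 were tested (ACTA2 and PDGFRB), of the 4 endothelial markers 1 (PECAM1), and none of these 3 was called in edgeR. ACTA2, the most abundant of the fibroblast list, had 70.5, 70.1 and 62.8 CPM in NC cells and 71.3, 71.7 and 71.0 CPM in ORF-Flag cells. Its groups did not overlap, with a log2 fold change of 0.077 (SE 0.047, edgeR adjusted p = 0.409) that was 0.021 without NC replicate 3. PDGFRB was low, with means of 0.827 CPM in NC and 0.618 CPM in ORF-Flag cells, groups that overlapped and a log2 fold change of −0.41 (SE 0.313, edgeR adjusted p = 0.541). DCN was at 0 in each library, and COL1A1 and COL3A1 had at most 3 counts. The fibroblast list summed to 71.2, 71.0 and 63.7 CPM in NC cells and to between 71.9 and 72.2 CPM in ORF-Flag cells. PECAM1, the most abundant of the endothelial list, had 4.45, 3.84 and 4.78 CPM in NC cells and 6.03, 5.29 and 5.78 CPM in ORF-Flag cells. All 3 ORF-Flag values of PECAM1 lay above all 3 NC values, with a log2 fold change of 0.39 (SE 0.132, edgeR unadjusted p = 0.00695, adjusted p = 0.0958), a larger size than in either called member. KDR was at 0 in each library, CDH5 had at most 1 count and VWF at most 13 counts. The endothelial list summed to 4.75, 4.16 and 5.01 CPM in NC cells and 6.56, 5.51 and 6.26 CPM in ORF-Flag cells. The part of ACTA2 and PECAM1 in the results above was not tested. The calls of APOA2, LYZ and FGB depended on single libraries: they were lost without NC replicate 2 for APOA2 (edgeR adjusted p = 0.0646), without ORF-Flag replicate 2 for APOA2 (0.0512) and LYZ (0.0998), and without ORF-Flag replicate 3 for APOA2 (0.0757). FGB lost its call without NC replicate 1 (edgeR adjusted p = 0.0624), NC replicate 2 (0.0927) and ORF-Flag replicates 1, 2 and 3 (0.117, 0.0814 and 0.0646). Over all alternatives the adjusted p in edgeR, DESeq2 or limma ran from 4.98e-05 to 0.0757 for APOA2, from 0.000465 to 0.117 for FGB and from 8.73e-05 to 0.0998 for LYZ.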

How the data were processed

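RNA from 6 HepG2 samples was sequenced, and the authors deposited raw read counts for 20422 genes in 1 table. The submitters' processing notes name cutadapt 1.11, HISAT2 2.1.0, featureCounts 1.6.0, edgeR and GRCh38. The annotation release and the strand setting are not given in the sources used here, so it is not known how reads that fit more than 1 gene were assigned. Groups were taken from the sample labels. Symbols were matched by Ensembl identifier (20421 of 20422), and 4055 genes had 0 counts in every library. Chi-square values per degree of freedom between libraries of a group were between 2.39 and 5.23, so no library looked like a copy of another in its group. Libraries of different groups were not compared in this way.

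Counts were analysed in R 4.3.3 with edgeR 4.0.16 (filterByExpr, which kept 12386 genes, TMM, glmQLFit and glmQLFTest, Benjamini-Hochberg adjustment over all genes tested). The biological coefficient of variation was 0.0389. Standard errors were derived from the quasi-likelihood F statistic, and 95% intervals from the t distribution. Exon lengths, GC content, overlaps and shared 31-base stretches came from GENCODE v29 on GRCh38, and figures were drawn with matplotlib 3.10.9. GC content and the 31-base stretches of a member were taken from its longest transcript only, so its other exon sequence was not checked for shared stretches. The single-gene tests were tested on simulated data. Alternatives were DESeq2 1.42.0, limma-trend and limma-voom in limma 3.58.1 (the study's methods name limma), library sizes without TMM, no filter, a minimum of 10 counts in all samples, a block for the replicate number, the 6 fits that lack 1 library, a threshold of 1.5-fold, and other gene lengths. Removing trends on GC content and transcript length, and the non-overlap counts without TMM or without 1 library, were added after seeing the data.

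The rule for named genes covered all 44 members. Full values were given for the catalytic and scaffold subunits, PPP1CB, PPP1R12A and PPP2R2A, members called, members at an unadjusted p below 0.05 or with groups that did not overlap, and members near the filter. From the other lists the genes called were named. Neighbours of called members were added by position. The members and lists were chosen with earlier results of these data known.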

Additional observations from a re-analysis of the deposited data

How the results depend on the processing

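PPP1R10 and PPP1R14B were called in DESeq2, limma-trend, limma-voom, without TMM, without a filter, with at least 10 counts in every sample, with the block and with the GC and length trends removed, and were lost when some libraries were left out. Leaving out 1 library in turn gave between 0 and 4 members called, between 199 and 1058 genes called over all genes, between 1 and 2 members past 1.2-fold with an unadjusted p below 0.05, and between 10 and 16 members with groups that did not overlap (24.4% to 39.0% of members, against 30.9% to 37.4% of all genes). The number of members at an unadjusted p below 0.05 in edgeR was then between 4 and 8, against 6 with all libraries. The share of all genes at that threshold is given for the main fit only. The 1.2-fold rule was not met by the same members in each of these fits. PPP2R5B alone met it without NC replicate 1 or ORF-Flag replicate 2, and PPP1R14B alone without ORF-Flag replicate 1. PPP1R12B met it with PPP1R10 without NC replicate 2, with PPP1R14B without NC replicate 3, and alone without ORF-Flag replicate 3. DESeq2 gave 0 members past the 1.2-fold rule, with 5 at an unadjusted p below 0.05, and a threshold of 1.5-fold gave 0. Without a filter 824 genes were called.

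Whether the replicate numbers pair the samples is not known. Deviations of libraries with the same number correlated at 0.0666, 0.0266 and 0.0448 for replicates 1, 2 and 3. The libraries numbered 1 and those numbered 3 correlated best with their own number, and for number 2 this was not so in both directions. Correlations this weak cannot decide the question. With the replicate number as a block, 2 members and 731 genes were called, 550 of them among the 551 of the unblocked fit, and the log2 fold change of PTPA was −0.0014. It changed no call among the members at an adjusted p below 0.05, and 9 had an unadjusted p below 0.05.

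Of 573 log2 fold changes of members under 14 alternatives, 43 had the other sign than the reported value. They belong to 18 members, none of them called, and none of the 43 exceeded 0.085 in size. Leaving out 1 library in turn moved the log2 fold change by more than 1.5 times, or turned its sign, at least once in 35 of 41 members. The other 6 were PPP1R10, PPP1R14B, PPP2R5B, STRN3, SET and ANP32A. It gave log2 fold changes from −0.0753 to 0.0107 for PPP1CA, −0.0226 to 0.0104 for PPP1CB, −0.0565 to 0.0115 for PPP1R12C, −0.0589 to 0.0293 for PPP1R18, −0.108 to 0.0456 for PPP1R37, −0.0440 to 0.00128 for PPP2CA, −0.0638 to 0.0142 for PPP2R1A and −0.0439 to 0.0239 for PPP2R1B. The same gave −0.0180 to 0.0202 for PPP2R2D, −0.0846 to 0.232 for PPP2R3A, −0.0124 to 0.0525 for PPP2R3C, −0.0431 to 0.0175 for PPP2R5D, −0.0314 to 0.0333 for PTPA and −0.0775 to 0.0039 for PPME1. With the GC and length trends removed, chosen after seeing the data, the log2 fold changes with the other sign were 0.00463 for PPP1CA, 0.0385 for PPP1R12C, 0.0184 for PPP1R9B, 0.0299 for PPP1R13L, 0.0526 for PPP1R18, −0.00073 for PPP1R21, 0.0389 for PPP1R37, −0.0143 for PPP2R3C, 0.00591 for PPP2R5D and 0.0270 for STRN4. Without TMM they were −0.00146 for PPP2R2D and −0.00400 for PTPA. PTPA was also at −0.00040 in DESeq2, −0.00059 in limma-trend and −0.0015 without a filter. The cause of these turns was not tested.

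Shares within families moved with the gene length used. With the longest transcript, the mean share over the 6 libraries was 47.9% for PPP1CC (main value 35.8%), 30.4% for PPP2CA (44.7%), 72.2% for PPP2R1A (69.3%), 42.8% for PPP2R2D (54.4%), 30.0% for PPP2R5D (40.7%) and 57.2% for STRN3 (65.4%). With no division by length it was 52.3%, 50.3%, 71.4%, 54.0%, 23.9% and 54.5% in the same order. PPP2R5C held more of the B56 sum than PPP2R5D under both, 32.2% with the longest transcript and 37.7% with no division. Read counts limit what can be said of PPP2R2B, PPP2R2C, PPP1R14C and PPP2R3A.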
